A study of Homo sapiens with 10 samples.

Results

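The late step of the response to a degrader was measured as the change in histone acetylation between 4 h and 24 h of dTAG47. It was read from all 42067 peak windows of the count table, in 4 of the 10 libraries of the series, 2 at 4 h and 2 at 24 h. The cells were Rh30, an established line from a human alveolar rhabdomyosarcoma, a childhood tumour with features of immature skeletal muscle. All groups, the DMSO controls included, carried PAX3-FOXO1 joined to FKBP, a degron that lets dTAG47 hand the fusion protein to the cell's degradation machinery. The dose was 500 nM for 2 h, 4 h or 24 h, and the control groups received the solvent DMSO. Each group had 2 libraries for H3K27ac, histone H3 acetylated at lysine 27. A further 2 input libraries of DMSO cells were not analysed here. The labels give one cell line and no second clone, and no source tells whether the libraries are separate cultures, so p-values measure a spread that may be technical. The labels give no time for the DMSO group, so time in culture and time of treatment cannot be told apart.

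H3K27ac marks active promoters and enhancers, and it is laid down by acetyltransferases that transcription factors recruit. PAX3-FOXO1 joins the DNA-binding part of PAX3 to the activating part of FOXO1, and it works at enhancers together with the muscle factors MYOD1 and MYOG. These tumour cells express muscle genes and yet do not complete differentiation into muscle fibres. Changes that appear hours after loss of a factor can follow from the changes before them, so a late interval and an early interval can hold different sites.

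Counts in peaks summed to 3641032 (A) and 4044019 (B) for the 4 h libraries and to 5001652 (A) and 4369471 (B) for the 24 h libraries. Levels below are in CPM, the count divided by the library's total in peaks and brought to a common scale with TMM factors. The median absolute log2 difference per peak was 0.174 between the 4 h libraries and 0.152 between the 24 h libraries. Between the groups it ran from 0.186 to 0.197. The typical peak therefore differed between times by little more than between libraries of one time. The chi-square per degree of freedom was 1.13 for the 4 h libraries and 1.07 for the 24 h libraries. Counting noise alone gives about 1, so libraries of one time differed by little more than counting noise. Windows of the muscle and tumour markers MYOD1, MYOG, DES, FGFR4 and MYCN held 2 to 9 peaks each. Those of PTPRC (blood), PECAM1 (endothelium) and ALB (liver) held 0, and that of EPCAM (epithelium) held 1.

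Between 4 h and 24 h of dTAG47, acetylation fell at 284 peaks and rose at 183 of 41791 tested (edgeR quasi-likelihood test, Benjamini-Hochberg adjusted p under 0.05). These are 1.12% of tested peaks, 0.68% lower and 0.438% higher. The median log2 change was -0.70 among peaks that fell and 0.83 among peaks that rose. Over all tested peaks the median was 0, and the range from the 5th to the 95th percentile was -0.47 to 0.52. Changes over 2-fold were found in 45 of the peaks that fell and 58 of those that rose. The peaks that rose had a median level of 14 CPM, against 21.8 CPM for those that fell. A weaker peak needed a larger change to be called, so these sizes cannot be compared between directions. The groups did not overlap in any of the 467 called peaks. The same held in 22.1% of all tested peaks for the lower direction and 21.5% for the higher. At an unadjusted p under 0.05 in the edgeR test, 2966 peaks were lower and 2659 higher. Scaled by total counts, an alternative, 2795 were lower and 2868 higher. Which direction had more peaks at this threshold thus depended on the scaling. The number of calls depended on each library and on the tool: leaving out 4 h library A left 149 losses and 109 gains, leaving out 4 h library B left 48 losses and 34 gains, leaving out 24 h library A left 74 losses and 45 gains, and leaving out 24 h library B left 88 losses and 46 gains. The DESeq2 Wald test called 3 lower and 0 higher peaks, with 798 and 468 at an unadjusted p under 0.05.

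**Figure D1:**
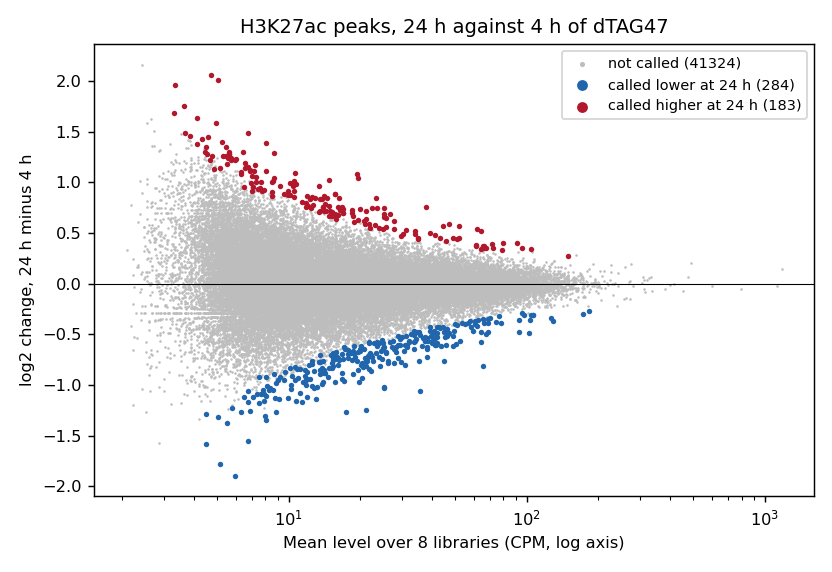
Log2 change from 4 h to 24 h (vertical axis) against the mean level over 8 libraries in CPM (horizontal log axis), 1 point per tested peak. The 284 peaks that fell are blue and the 183 that rose are red; the smallest called changes are at high levels, where the spread is narrow.

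How far a peak had to move to be called depended on its level. In the lowest 20% of peaks by mean level, with a median of 5.69 CPM, the median standard error was 0.32 and the smallest called change was 0.92 in log2. In the highest 20%, with a median of 57.1 CPM, these values were 0.10 and 0.27. Small changes in weak peaks were thus not detectable at this depth. The direction of calls also followed level: the lowest 20% held 14 lower and 48 higher calls, and the highest held 79 and 28. The median change in the lowest 20% was 0.12. With library offsets that follow abundance, an alternative, that median was 0.01 and the lowest 20% held 32 lower and 25 higher calls. The excess of gains among weak peaks therefore turned with the scaling.

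The single peak with the lowest adjusted p lay on chromosome 2 (hg19, chr2:241930437-241930837), and it was called under every alternative run. Its level was 66 and 67.3 CPM in the 4 h libraries and 39 and 36.9 CPM in the 24 h libraries. Both 24 h values lay far below both 4 h values (a log2 change of -0.81, SE of 0.10, edgeR adjusted p = 2.95e-08). DMSO libraries were at 86.5 and 86.9 CPM and 2 h libraries at 69.1 and 78.7. The level thus stepped down over the whole series of times, though the change at 2 h did not pass the test (edgeR adjusted p = 0.282).

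Among peaks of at least the median level, the 12 largest losses ran from -0.89 to -1.26 in log2 and the 12 largest gains from 0.75 to 1.08. The largest loss, L1 in the plot of named peaks, was at chr1:224970135-224970535. It measured 18.5 and 17.6 CPM at 4 h and 9.31 and 5.46 CPM at 24 h (a log2 change of -1.26, SE of 0.21, edgeR adjusted p = 4.9e-05). Its 24 h libraries differed from each other more than its 4 h libraries did. Both remained under the lower 4 h value, as the rule for naming required. L2, at chr9:116984488-116984888, measured 21.5 and 20.4 CPM at 4 h and 8.32 and 9.33 CPM at 24 h (a log2 change of -1.25, SE of 0.19, edgeR adjusted p = 6.67e-06). Its DMSO libraries stood higher, at 32.5 and 32.1 CPM.

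A pair of neighbouring losses lay on chromosome 10. L3, at chr10:115426225-115426625, measured 38.4 and 35 CPM at 4 h and 16 and 19.3 CPM at 24 h (a log2 change of -1.06, SE of 0.14, edgeR adjusted p = 1.1e-07). L7, at chr10:115427159-115427559, measured 19.4 and 22.8 CPM at 4 h and 11.1 and 10.5 CPM at 24 h (a log2 change of -0.97, SE of 0.19, edgeR adjusted p = 0.000721). The first of the pair was level with DMSO at 2 h (a log2 change of 0), and lower in both 24 h libraries than in any earlier library. L7 was not called without 4 h B (edgeR adjusted p = 0.0987). L2 and L3 were the 2 named peaks called under every alternative that was run.

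Gains were led by H1, at chr1:55024548-55024948. It measured 15.5 and 12.9 CPM at 4 h and 33.5 and 26.2 CPM at 24 h (a log2 change of 1.08, SE of 0.16, edgeR adjusted p = 5.24e-06). The DMSO libraries, at 15.7 and 12.8 CPM, and the 2 h libraries, at 14.3 and 14.7 CPM, lay with the 4 h libraries. The peak was thus flat until 4 h and higher in both 24 h libraries. H4, at chr17:28850356-28850756, had the same shape, with 10.9 and 12.9 CPM at 4 h and 20 and 24.6 CPM at 24 h. In contrast, H5, at chr19:18555225-18555625, measured 5.69 and 8.52 CPM in DMSO, 12.4 and 12.6 CPM at 2 h, 12.8 and 14.1 CPM at 4 h and 22.6 and 27.8 CPM at 24 h. Its 2 h libraries were both above DMSO, without passing the test (edgeR adjusted p = 0.0767). H4 was not called without 4 h A or 24 h B (edgeR adjusted p of 0.0674 and 0.112), nor H5 without 24 h B (edgeR adjusted p = 0.0878). Of the 24 named peaks, 10 kept their call with any 1 of the 4 libraries left out, and the other 14 lost it at least once. The DESeq2 Wald test called 2 of the 24.

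**Figure D2:**
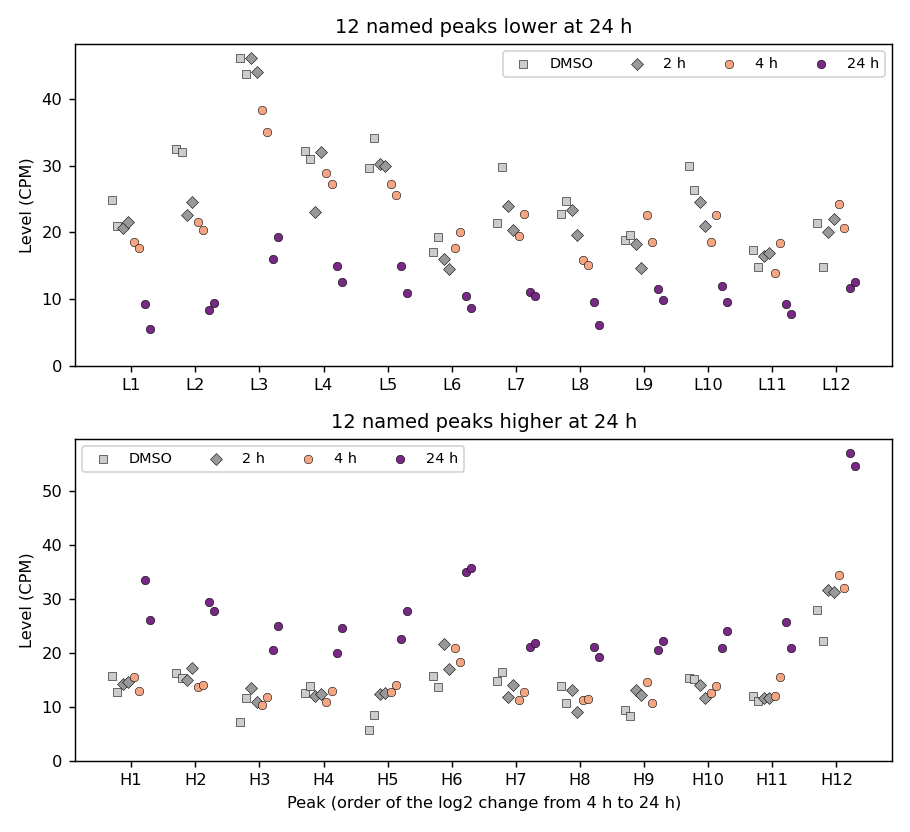
Levels in CPM of the 12 named peaks that fell (L1 to L12, upper panel) and the 12 that rose (H1 to H12, lower panel), 1 point per library and 2 libraries per group. In each peak both 24 h points lie on one side of both 4 h points, which the rule for naming required; H12 reaches 57.1 and 54.6 CPM at 24 h.

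Neighbours of called peaks mostly had a change of the same sign. Among the 284 peaks that fell, 219 had a tested neighbour within 12500 bases, and the nearest one had a negative change in 171 cases (78.1%), with a median of -0.21. Among the 183 that rose, 126 had a neighbour, which was positive in 101 cases (80.2%), with a median of 0.25. Over all tested peaks with a neighbour, 52.5% of nearest neighbours were negative and the median was -0.01. Neighbouring windows share libraries, and their counts can come from one broad acetylated domain.

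Peaks within 12500 bases of each other were therefore also summed into regions. Of 26144 regions tested, 323 fell (1.24%) and 197 rose (0.754%), together 1.99%. Among the 8253 regions with 2 or more peaks, 230 fell and 120 rose. The share called was larger in larger regions, from 0.95% of single peaks to 3.16% of regions with 2 to 3 peaks, 8.35% with 4 to 7 and 11.2% with 8 or more. The median standard error was smaller there, 0.05 in log2 against 0.22. Of the 230 lower and 120 higher regions with 2 or more peaks, 121 and 63 held no peak that was called on its own. Without each of the libraries in turn, 83 to 129 regions fell and 38 to 107 rose, the fewest in both directions without 4 h library B and the most higher ones without 4 h library A. The DESeq2 Wald test called 9 and 9.

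The called peaks fell in 428 regions, of which 34 held 2 or more called peaks. Called peaks of one region can come from one broad acetylated domain, so like directions within a region are not separate results. Of the 34, 1 was mixed in direction, with a loss at chr12:58427906-58428306 and a gain at chr12:58516174-58516574. The loss was not called without 4 h B or 24 h B, nor the gain without 4 h B, 24 h A or 24 h B (edgeR adjusted p of 0.0878 to 0.578). Among regions with 2 or more peaks and at least the median level of tested regions, the largest summed gain spanned chr20:35860176-35880036. Its 3 peaks together measured 26 and 31.3 CPM at 4 h and 58.3 and 56.2 CPM at 24 h (a log2 change of 0.99, SE of 0.12, edgeR adjusted p = 7e-12). All 3 peaks rose on their own, by 0.86 to 1.11, and the summed level in DMSO was 31.5 and 31.1 CPM, close to that at 4 h. A shorter region at chr1:95338788-95340345 went from 20.8 and 22.3 CPM to 40.2 and 40.5 CPM (a log2 change of 0.90, SE of 0.14, edgeR adjusted p = 4.24e-07), and both of its peaks rose.

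The largest summed loss by the same rule was at chr5:141325126-141332624, where 3 peaks together went from 30.1 and 33.8 CPM at 4 h to 16.3 and 16.1 CPM at 24 h (a log2 change of -0.98, SE of 0.15, edgeR adjusted p = 6.65e-07). The 24 h libraries were nearly equal and far under both 4 h libraries. DMSO stood at 28.4 and 32.8 CPM, close to 4 h. At chr14:69150079-69161830 the summed level went from 43 and 45.2 CPM to 25.2 and 25.5 CPM (a log2 change of -0.80, SE of 0.13, edgeR adjusted p = 1.05e-06), with changes of -0.79 and -0.80 in its 2 peaks. These 4 regions were called under every alternative run, while 6 of the 12 named regions kept the call with any 1 library left out.

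**Figure D3:**
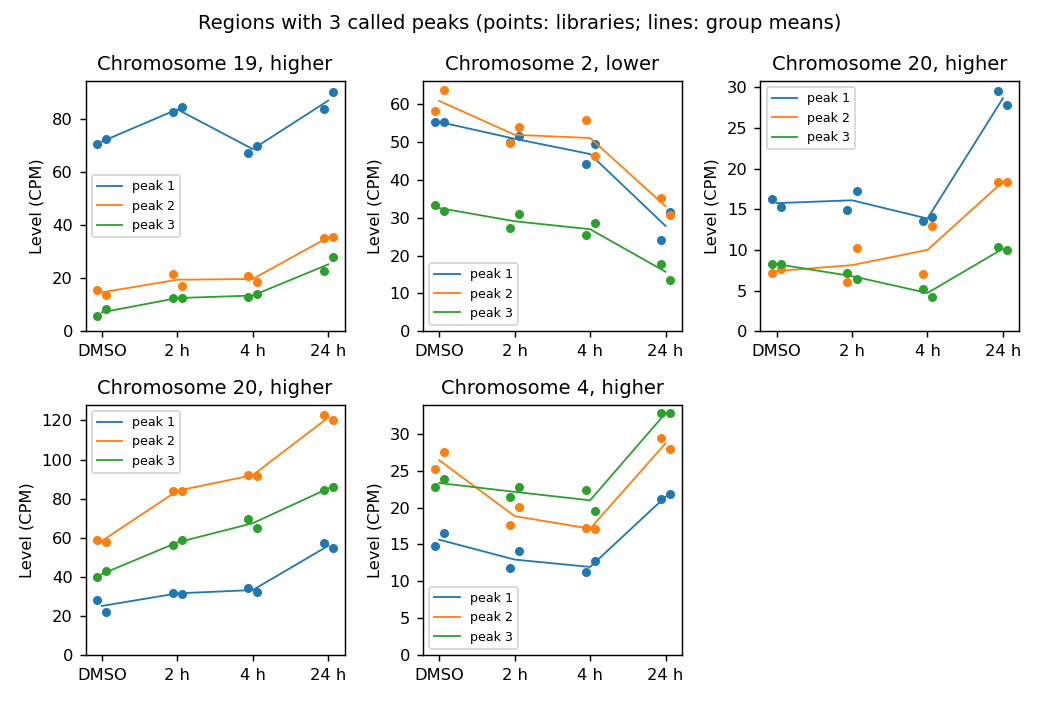
Levels in CPM of the called peaks in the 5 regions that held 3 of them, by time, with 1 point per library and lines through the group means. The region on chromosome 2 fell and the others rose; of the 2 panels for chromosome 20, the lower left one climbs at each time and the upper right one after 4 h.

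One of the regions with 3 called peaks lay on chromosome 20, in the window of the muscle microRNA genes MIR1-1 and MIR133A2. This window was added after the region was seen to rise, and a peak in it is near the genes and no more is known of it. The mature microRNAs of this locus are shown because the rise was seen here; both are abundant in muscle, where they repress many messenger RNAs, and capitals mark the seed, bases 2 to 8, that pairs with targets.
hsa-miR-1-3p: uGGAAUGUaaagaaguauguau
hsa-miR-133a-3p: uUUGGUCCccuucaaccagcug
The sequences are RefSeq's, from GRCh38.p14, and the seeds differ, so the 2 are not one seed family.

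Each of the 6 peaks in this window had a positive change from 4 h to 24 h, and 3 rose. Over all tested peaks, 0.438% rose and 50.2% were negative. The window was chosen because of its rise, so these counts only describe it. The peak at chr20:61147999-61148399 measured 34.4 and 32 CPM at 4 h and 57.1 and 54.6 CPM at 24 h (a log2 change of 0.75, SE of 0.11, edgeR adjusted p = 5.24e-06). The peak at chr20:61155329-61155729 measured 92.2 and 91.8 CPM at 4 h and 123 and 120 CPM at 24 h (a log2 change of 0.40, SE of 0.08, edgeR adjusted p = 0.000915). It had already risen at 2 h, from 58.9 and 57.7 CPM to 83.9 and 84.1 CPM (a log2 change of 0.53, edgeR adjusted p = 9.18e-05). A further peak, at chr20:61164142-61164542, went from 69.8 and 65 CPM to 84.6 and 85.8 CPM (edgeR adjusted p = 0.0264), also after a rise at 2 h (edgeR adjusted p = 0.0069). Its late call was lost without any 1 of the 4 libraries, at edgeR adjusted p values of 0.0687 to 0.325. These 2 were the only peaks in the table that passed the edgeR test upward both at 2 h against DMSO and from 4 h to 24 h. The DESeq2 Wald test called none of the 3 late rises (for the first 2, DESeq2 adjusted p of 0.134 and 0.639). Against a 1.2-fold change, glmTreat did not call the peaks at chr20:61155329 and chr20:61164142 (glmTreat adjusted p of 0.482 and 0.82). The related window of MIR206 and MIR133B on chromosome 6 held 4 peaks and none was called, with changes from -0.40 to 0.19.

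Peaks were then placed near other genes of muscle and of the fusion. The table names no genes and no hg19 annotation was at hand, so windows of 10 kb on each side of a gene were set from general knowledge of hg19 positions. Against RefSeq's GRCh38.p14 table, 79 of 79 single-gene windows lay on the chromosome listed for the symbol, and the order of the genes was the same on 16 of 16 chromosomes with several windows. A peak in a window is not thereby assigned to the gene. Over 78 windows with peaks, 4 of 340 peaks fell and 4 rose, 2.35% against 1.12% of all tested peaks. The DESeq2 Wald test called none of these 8. The lists and windows were chosen with earlier results of these data known. Shares were not matched for level, so here and below they only describe the windows.

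Myogenic regulators, the transcription factors that set muscle identity, had 25 peaks in 7 windows and no call in either direction (median log2 change 0.01, against 0 over all tested peaks). The summed level in the MYOD1 window was 298 and 312 CPM at 4 h and 290 and 306 CPM at 24 h. That in the MYOG window was 230 and 248 CPM at 4 h and 231 and 226 CPM at 24 h. The 2 groups overlapped in both windows. Genes of the nerve-muscle synapse, with 9 peaks, had none either (median -0.01).

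Contractile genes, a list mostly of the sarcomere and its assembly that also held DES and CKM, had 57 peaks in 17 windows, with 0 lower and 3 higher. The 3 are 5.26% of these peaks, against 0.438% higher among all tested peaks. The median log2 change was 0.11 and 18 of 57 were negative, against 0 and 50.2% over all tested peaks. Each peak in the windows of the muscle genes TTN, CSRP3 and NEB was negative, from -0.84 to -0.11, and none of these was called. The rise in the window of UNC45B, a chaperone for myosin, was named peak H3, at chr17:33474998-33475398. It measured 10.4 and 11.9 CPM at 4 h and 20.6 and 25 CPM at 24 h (a log2 change of 1.02, SE of 0.19, edgeR adjusted p = 0.000353). The groups did not overlap, as the rule for naming required. In the window of ACTC1, an actin of heart and developing muscle, the peak at chr15:35086809-35087209 measured 54 and 63.3 CPM at 4 h and 75.1 and 76.9 CPM at 24 h (edgeR adjusted p = 0.0213). Its call was lost without 4 h A, 24 h A or 24 h B, at edgeR adjusted p values of 0.324, 0.13 and 0.157. In the window of MYL1, a light chain of fast myosin, the peak at chr2:211152316-211152716 measured 5.45 and 5.21 CPM at 4 h and 11.9 and 8.64 CPM at 24 h (edgeR adjusted p = 0.0458). That call was lost without any 1 of the 4 libraries, and also with abundance offsets (edgeR adjusted p = 0.0549) and in the fit of 4 libraries (edgeR adjusted p = 0.0529). With windows of 50 kb the contractile list held 3 higher and 2 lower calls, the losses lying in the wider windows of DES and TNNC2.

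Genes that general knowledge lists as PAX3-FOXO1 targets had 177 peaks in 26 windows, of which 3 fell (1.69%, against 0.68% of all tested peaks) and 1 rose (0.565%, against 0.438%), with a median of -0.04. The losses included 2 of the 6 peaks in the window of PRDM12, a zinc finger factor. The first, at chr9:133535360-133535760, measured 80 and 72.2 CPM in DMSO, 41.8 and 44 CPM at 2 h, 41.2 and 41.9 CPM at 4 h and 27.5 and 27.1 CPM at 24 h. It fell at 2 h and fell again late (a log2 change of -0.61, SE of 0.13, edgeR adjusted p = 0.00205), with a plateau between. The second, at chr9:133540074-133540474, went from 59.7 and 59.6 CPM at 4 h to 43 and 49.1 CPM at 24 h (a log2 change of -0.38, edgeR adjusted p = 0.0381). Without 4 h library B the first lost its call (edgeR adjusted p = 0.073). The second lost it without any 1 library, at edgeR adjusted p values of 0.0616 to 0.414.

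A peak in the window of ALK, a receptor tyrosine kinase, was at chr2:30033868-30034268 and fell from 9.82 and 11.9 CPM to 4.56 and 6.82 CPM (edgeR adjusted p = 0.0318). The other 27 of the 28 peaks in that window were not called. The fall lost its call without 4 h A, 4 h B or 24 h A, at edgeR adjusted p values of 0.0594, 0.359 and 0.411. The gain, in the window of PRDM16, another zinc finger factor, rests on few reads. At chr1:3073414-3073814 the libraries held 8 and 5 counts at 4 h and 34 and 31 at 24 h (edgeR adjusted p = 0.000705, and 0.0987 without 4 h library B). The DMSO libraries held 16 and 19. The FGFR4 window, with 9 peaks, and the MYCN window, with 3, had no call.

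Early response genes had 35 peaks and 1 fall (2.86%, against 0.68% of all tested peaks), in the window of DUSP6, a phosphatase that acts on ERK. That peak, at chr12:89745258-89745658, went from 102 and 102 CPM to 82 and 81.4 CPM (a log2 change of -0.31, SE of 0.08, edgeR adjusted p = 0.0244). The libraries of each time nearly coincided, yet the call was lost without any 1 of them, at edgeR adjusted p values of 0.131 to 0.193. Cell cycle genes, with 24 peaks in 6 windows, and housekeeping genes, with 12 peaks in 7, had no call.

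**Figure D4:**
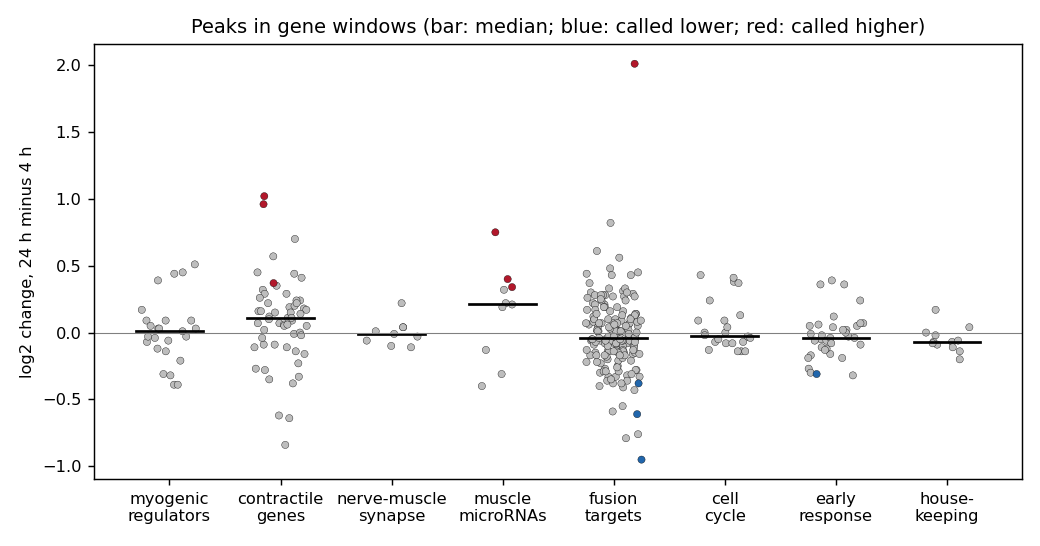
Log2 change from 4 h to 24 h of each tested peak in the gene windows, by list, with black bars at the medians; called losses are blue and called gains red. The contractile list has 3 gains and a median of 0.11, and regulators have no call; the single peak in the EPCAM window is not drawn.

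Whether late changes continue early ones was read from 2 h against DMSO, which shares no library with 24 h against 4 h. In that early comparison 431 peaks fell (1.03% of tested) and 81 rose (0.194%). Of the 284 late losses, 10 had already fallen at 2 h (3.52%) and 1 had risen. Of the 183 late gains, 2 had risen at 2 h (1.09%) and 4 had fallen (2.19%). The shares to read these against are the 1.03% and 0.194% of all tested peaks, and each rests on 10 peaks or fewer. The median 2 h change was -0.01 for late losses and 0.03 for late gains, against 0 for all tested peaks. Negative 2 h changes were found in 52.1% of late losses, 43.7% of late gains and 49.2% of all tested peaks. Read the other way, 10 of the 431 early losses (2.32%, against 0.68% of all tested peaks) fell further after 4 h and 4 (0.928%, against 0.438%) rose. The counts of shared peaks were 2 to 6, 0 to 1, 0 to 4 and 1 to 1 with a library left out, in the order lower late and lower early, lower late and higher early, higher late and lower early, and higher in both. They were smallest without 4 h B for lower in both and for higher late and lower early, and without 24 h A for lower late and higher early.

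**Figure D5:**
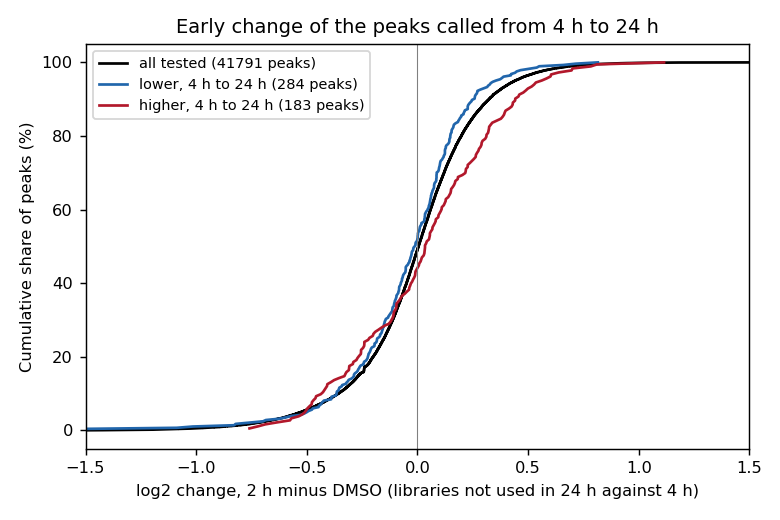
Cumulative share of peaks (vertical axis, %) by log2 change from DMSO to 2 h (horizontal axis) for the 284 late losses, the 183 late gains and all 41791 tested peaks. The curves cross zero at 52.1%, 43.7% and 49.2%, close together.

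Peaks that fell at both steps could be deep. At chr6:89129934-89130334 the DMSO libraries measured 17.1 and 19.3 CPM, the 2 h libraries 5.5 and 6.4 CPM, the 4 h libraries 8.73 and 7.2 CPM and the 24 h libraries 3.37 and 3.18 CPM. The 24 h libraries were lowest, with a log2 change of -1.26 from 4 h (SE 0.31, edgeR adjusted p = 0.0146). At chr5:31132974-31133374 the DMSO libraries measured 25.9 and 24.7 CPM, the 2 h libraries 14 and 11.3, the 4 h libraries 11.7 and 9.43 and the 24 h libraries 5.35 and 4.09. Groups were separated at both steps there. The late call of the first peak was lost without any 1 of the 4 libraries, and that of the second without 4 h A, 24 h A or 24 h B, at edgeR adjusted p values of 0.0508 to 0.158.

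By edgeR, the 4 late gains that had fallen at 2 h dipped and came back. The DESeq2 Wald test called none of the 4 from 4 h to 24 h, and each edgeR call depended on single libraries. The clearest, at chr20:47117498-47117898, measured 72.9 and 73.6 CPM in DMSO, 46.5 and 55.5 CPM at 2 h, 50.4 and 47.4 CPM at 4 h and 72.5 and 69.2 CPM at 24 h (late log2 change 0.54, SE of 0.10, edgeR adjusted p = 0.000404). Its 24 h libraries lay just under the DMSO libraries, and its late call was lost without 4 h B (edgeR adjusted p = 0.053). The opposite course was seen at chr9:136008707-136009107, the 1 late loss that had risen at 2 h. It measured 53.5 and 56.3 CPM in DMSO, 66.6 and 74.9 CPM at 2 h, 76.9 and 73 CPM at 4 h and 51.1 and 57.1 CPM at 24 h (late log2 change -0.47, SE of 0.10, edgeR adjusted p = 0.00152). Without 24 h A that call was lost (edgeR adjusted p = 0.134). In bulk cells, a lower level per cell and fewer cells with the mark cannot be told apart.

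Against DMSO, values that share libraries with the late step stand beside it. The late losses had a median log2 difference from DMSO of 0.05 at 4 h and -0.65 at 24 h, and the late gains of -0.13 and 0.68. These peaks were chosen by 24 h against 4 h, so the direction of the step between those medians was set by that choice. By position, the highest shares called among the autosomes were 1.94% on chromosome 20 and 1.84% on chromosome 9, against 0.117% on chromosome X (1 of 855). Chromosome Y had few peaks, of which 2 of 33 rose (6.06%). Of 602 windows of 5 Mb, 368 held no call. The window with most losses, on chromosome 9 from 130 to 135 Mb, held 11 losses and 3 gains in 310 peaks, with 63.2% of its peaks negative. That window, which includes the PRDM12 peaks, was picked out after its counts were seen. On chromosome 1 from 95 to 100 Mb, 5 of 43 peaks rose and none fell, and 20.9% were negative. This window too was picked out after its counts were seen. Over all tested peaks, 0.68% fell, 0.438% rose and 50.2% were negative.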

How the data were processed

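H3K27ac was measured by ChIP-seq in 8 libraries, 2 per group. The authors deposited raw read counts in 42067 windows, and 42065 of them span 400 bases, per the file headers and values. Per the submitters' processing notes, Trimmomatic 0.32, Bowtie2, MACS2, DiffBind and DESeq2 were used with builds hg19 and dm3, in no stated role. The libraries behind the peak calls and any use of a spike-in are not given in the sources used here, so a change common to all peaks cannot be seen after scaling. Starts are as deposited, and whether they count from 0 or 1 is not stated. Columns were matched to groups by name, and 0 columns were left over.

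The test was edgeR 4.0.16 under R 4.3.3. The filter filterByExpr (minimum count 10, minimum total 15) kept 41791 peaks and left out 276. One quasi-likelihood model (TMM, robust) was fitted to the 4 groups, so DMSO and 2 h libraries enter the spread but not the means of 24 h against 4 h. The coefficient of variation that edgeR terms biological, which leaves out counting noise, was 3.29%. The prior degrees of freedom were 182 (median), so standard errors rest mostly on the spread shared by all peaks. Calls are at a Benjamini-Hochberg adjusted p under 0.05. The procedure was tested on simulated data. The simulated counts took their spread from the fitted model, so that test could not show whether the fitted spread is too small. Named peaks are the 12 lower and 12 higher calls with the largest change at or above the median level of 14.2 CPM whose libraries did not overlap; named regions are the 6 and 6 with 2 or more peaks by that rule. In gene windows each called peak is named. Other peaks, regions and 5 Mb windows in the text, including those called at 2 h too, were picked after their values were seen. The peaks, lists and windows were chosen with earlier results of these data known. Alternatives were other scalings, no filter, a 4-library fit, DESeq2 1.42.0, glmTreat against a 1.2-fold change, leaving out each library, and other distances. The microRNA windows, a block on the column letter and the calls by level under offsets were added after seeing the data. A motif search of a few promoters was also run. It is not reported, because the last motif tried was picked after a sequence had been read.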

Additional observations from a re-analysis of the deposited data

How the results depend on the processing

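Counts of peaks and regions stayed within 1.5 times under DESeq2 size factors, total counts, abundance offsets, no filter, the fit of the 4 h and 24 h libraries alone and, for regions, stitching within 5 kb. No named result reversed under any alternative run. The DESeq2 Wald test called 3 lower and 0 higher peaks, 9 lower and 9 higher regions and 0 of the peaks also called at 2 h, whose 2 h calls were held fixed in each alternative; the cause was not tested. Against a 1.2-fold change, glmTreat called 14 lower and 11 higher peaks and 15 and 8 regions, and the 4 counts of peaks also called at 2 h were each 0. With a library left out, 48 to 149 peaks fell and 34 to 109 rose, 83 to 129 regions fell and 38 to 107 rose. The peaks also called at 2 h numbered 2 to 6 (lower in both), 0 to 1 (lower late, higher early), 0 to 4 (higher late, lower early) and 1 to 1 (higher in both). An arm left with 1 library was assumed to vary like the other groups. Windows of 50 kb in place of 10 kb gave 2 lower contractile peaks where there were 0. Columns carry the letters A and B and the labels numbers, and no source says that a letter marks a shared culture or day. The A minus B differences of any 2 groups correlated at -0.033 to 0.054 over 41791 peaks, so the letters were not taken as pairs. With a replicate block on the letter, added after seeing the data, 307 peaks fell and 193 rose, and 328 and 193 regions; each named peak and region kept its call. Depth limits weak peaks: with a median count of 50 to 69 per library, small changes in them were not detectable.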
